A study of Mus musculus with 3 samples.

Results

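The loci described here are 3 mouse imprinted domains whose methylation mark is inherited from sperm: H19 and Igf2 on chromosome 7, Dlk1 and Meg3 on chromosome 12, and Rasgrf1 on chromosome 9. Every CCGG site in or within 20 kb of these 5 genes (GENCODE M21, GRCm38) was taken, together with those upstream of H19, between Dlk1 and Meg3, and up to 40 kb upstream of Rasgrf1. This gave 384 of the 1026125 CCGG positions listed in any of the 3 tables, with 49 at H19, 67 at Igf2, 170 at Dlk1 and Meg3 and 98 at Rasgrf1. Of these, 332 were within 20 kb of a gene and 52 were only in a marked stretch upstream of or between the genes. In MethylRAD, FspEI releases a fragment of 31 or 32 bp around a methylated cytosine, so a site gives more reads the more it is methylated, and a site that is not methylated gives none.

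The undifferentiated sample was the wild-type mouse ESC line E14Tg2A, grown with leukemia inhibitory factor. The untreated sample was the same line at day 7 of differentiation by leukemia inhibitory factor withdrawal and retinoic acid, and the treated sample was differentiated in the same way with 3 mM pargyline, an inhibitor of the histone demethylase LSD1. Each condition had 1 library, so no difference could be set against a spread between replicates, and no test was made. Only DNA methylation was measured, so the labelled cell type was not checked against marker genes. The 95% intervals given here cover counting error only, and the methods describe summing of sites found under more than 1 motif pattern but name no removal of PCR copies. Both day 7 samples are compared with the same undifferentiated library, so the 2 comparisons are not independent.

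An imprinted gene is expressed from the allele of 1 parent. At these domains a control region is methylated on the paternal allele in sperm and keeps this mark in the embryo, while the maternal allele stays unmethylated. Upstream of H19, a non-coding RNA, the unmethylated maternal allele binds the insulator protein CTCF, and enhancers beyond H19 then act on H19 and not on Igf2, which encodes a fetal growth factor. Between Dlk1, which encodes a transmembrane inhibitor of differentiation, and the non-coding RNA Meg3, the paternal mark silences Meg3 and allows Dlk1 expression. Upstream of Rasgrf1, a guanine nucleotide exchange factor of Ras, methylation allows expression of the paternal copy. Reads from both alleles are counted together in these data, so the paternal and the maternal copy cannot be told apart.

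The tables held 31614085, 36654600 and 25767119 CCGG reads in the undifferentiated, untreated and treated samples, and reads were scaled to 1000000 CCGG reads of each table. A site with fewer than 5 reads is not listed, so an unlisted site had at most 4 reads or could not be mapped. The 384 sites held 11522, 13687 and 10032 reads, with a median of 29, 35 and 26 reads per listed site. Over all 384 sites, the scaled reads were 364, 373 and 389 in the undifferentiated, untreated and treated samples. The pooled ratio to the undifferentiated sample was 1.02 (0.999 to 1.05) in untreated cells and 1.07 (1.04 to 1.10) in treated cells. With the deposited scaling to all mapped reads, every ratio to the undifferentiated sample is lower by 0.32 (untreated) or 0.69 (treated) on the log2 scale. With that scaling, an untreated ratio under 1.25 or a treated ratio under 1.62 falls below 1, and a treated to untreated ratio does so under 1.30. Directions given here are therefore relative to the CCGG reads of each table.

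The few CCGG sites of each control region carry what the CCGG counts can show of the imprint, and their sequences are shown first. Each is given 5′ to 3′ on the plus strand of the RefSeq copy of GRCm38, with the CCGG motif that FspEI reads in capitals and the distance upstream of the start in its name. The H19 control region, taken as 2 to 4 kb upstream of H19 (chr7:142580143-142582143, intergenic), held 3 motifs.
H19, 2998 bp upstream: aaaggagaccattCCGGaagggcataggtg
H19, 3043 bp upstream: ttaacaaggctctCCGGgacagtgcaaaac
H19, 3242 bp upstream: ttgcagccctgagCCGGagatcattagcat

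The Dlk1-Meg3 control region was taken as 10 to 16 kb upstream of Meg3 (chr12:109525001-109531001, intergenic) and held 10 motifs. The sites 11270 and 11244 bp upstream are 26 bp apart.
Meg3, 15290 bp upstream: gagcagaatttccCCGGttagaaagtttgt
Meg3, 15211 bp upstream: gaataaggaagtgCCGGctcaatgaggaag
Meg3, 14324 bp upstream: ggcacagtccatcCCGGctcaggttcaagt
Meg3, 14266 bp upstream: acagcctggtacaCCGGatgtgcagcagca
Meg3, 13610 bp upstream: tgtatggtacaaaCCGGgtgactcgcggaa
Meg3, 12377 bp upstream: gaggctgtcctctCCGGtgctgtgaccata
Meg3, 12133 bp upstream: tgcacttacaacaCCGGtctcggagttctt
Meg3, 11270 bp upstream: ctactcctgagccCCGGgattcctgactcc
Meg3, 11244 bp upstream: ctcccctgagagcCCGGctgcaacctgaac
Meg3, 10225 bp upstream: ggcaaattgatgaCCGGttaaccctccccc

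The Rasgrf1 control region was taken as 26 to 34 kb upstream of Rasgrf1 (chr9:89875908-89883908, intergenic) and held 3 motifs, of which the last was listed in no table.
Rasgrf1, 31832 bp upstream: accaccccaaatcCCGGacttccctgttgt
Rasgrf1, 31595 bp upstream: gatagaaaccatgCCGGctcagaaaatgtc
Rasgrf1, 27919 bp upstream: aaatcttaatatcCCGGagtaaatcccgtt

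The H19 control region also held the CTCF core motif, searched on both strands, at 4 places. They are shown because methylation of their CpGs is known to block CTCF, and none of the CCGG reads covers them. All 4 were on the minus strand, written 5′ to 3′ with the core in capitals.
CTCF core, 2166 bp upstream of H19: acgatgCCGCGTGGTGGCAGtacaat
CTCF core, 2621 bp upstream of H19: atgctaCCGCGCGGTGGCAGcatact
CTCF core, 3647 bp upstream of H19: gggttgCCGCACGGCGGCAGtgaagt
CTCF core, 3891 bp upstream of H19: gagttgCCGCGTGGTGGCAGcaaaat

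The 4 cores hold 2 or 3 CpGs each, and the nearest CCGG motif was 819, 364, 402 and 152 bp away, which is beyond the reach of a MethylRAD fragment. The core was found in 554 of 1323790 2 kb tiles of the genome (0.0418%). It was searched in 1 strict form, so this share is not that of all CTCF sites. The letters TGCCGC, the hexamer known to be bound by ZFP57 when methylated, were also searched on both strands. They occurred 5 times in the H19 control region, 4 of them overlapping a CTCF core, 10 times in the Dlk1-Meg3 control region and 9 times in the Rasgrf1 control region. This is 2.5, 1.67 and 1.12 per kb, against 0.0634 per kb of the genome, where 10.8% of the 2 kb tiles hold the hexamer. None of these hexamers overlapped a CCGG motif.

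All 3 control regions had reads in undifferentiated ESCs and after differentiation. The scaled reads per CCGG motif in the H19 control region were 1.27 in undifferentiated, 0.737 in untreated and 0.712 in treated cells. They were 0.512, 0.617 and 0.757 in the Dlk1-Meg3 control region and 0.496, 0.555 and 0.427 in the Rasgrf1 control region. For comparison, the median of all 2 kb tiles with at least 3 motifs was 0.453, 0.455 and 0.495, so the 3 regions stood above the median of the genome in each sample except for Rasgrf1 in treated cells. The mean over all motifs of the genome was 0.613 in each sample. Rasgrf1 in every sample and Dlk1-Meg3 in undifferentiated cells were below this mean. A 28-base window around the motif was unique for every motif of the 3 regions and for 76.8% in the genome. Its part in these levels was not tested. These levels rest on few motifs, and the intervals for each site are wide.

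At the H19 control region, the reads were 120 in undifferentiated, 81 in untreated and 55 in treated cells. The scaled level in untreated cells was 0.582 times that of undifferentiated cells (0.434 to 0.778), and in treated cells 0.562 times (0.401 to 0.780). The 2 day 7 samples gave a ratio of 0.966 (0.673 to 1.38) to each other. The site 2998 bp upstream had the largest difference in reads, with 82 in undifferentiated, 36 in untreated and 13 in treated cells. Its neighbour 45 bp further upstream went the other way, from unlisted to 17 and 24 reads, and the site 3242 bp upstream had 38, 28 and 18 reads. The next CCGG site outward, 4056 bp upstream, had 45, 112 and 51 reads, and with the region extended to 5 kb, which includes this site, the ratios were 1.01 in untreated and 0.788 in treated cells. The lower level in untreated cells thus depends on where the region ends. In both day 7 samples, the lower level of the region rests on the site 2998 bp upstream, with ratios of 0.379 (0.248 to 0.567) and 0.195 (0.0994 to 0.351). At the site 3242 bp upstream the ratios were 0.636 (0.376 to 1.06) and 0.581 (0.312 to 1.04), and each interval includes 1. Over the windows 2 to 4 kb upstream of all genes with at least 50 reads, 15.99% had a lower ratio than H19 in untreated cells and 16.8% in treated cells.

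At the Dlk1-Meg3 control region, the reads were 162, 226 and 195 in the undifferentiated, untreated and treated samples. The ratio to undifferentiated cells was 1.20 (0.979 to 1.48) in untreated cells and 1.48 (1.19 to 1.83) in treated cells, and the ratio of treated to untreated cells was 1.23 (1.01 to 1.49). The difference was found at 3 of the 10 sites. The site 15290 bp upstream had 9, 34 and 33 reads, the site 11270 bp upstream 27, 64 and 42 reads, and the site 11244 bp upstream 16, 42 and 53 reads. The site 15211 bp upstream, 79 bp from the first of these, was lower at day 7, with 42, 13 and 16 reads. Without the pair of sites 26 bp apart, the ratios were 0.870 and 1.03, so the higher level in both day 7 samples rests on this pair. Both ratios of the whole region also lie under the limits of 1.25 and 1.62 and fall below 1 with scaling to mapped reads. The same window of all genes had a higher ratio in 31.0% of cases for untreated and in 18.8% for treated cells.

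The remaining sites of the Dlk1-Meg3 control region had few reads. The sites 14324 and 12377 bp upstream were listed in all 3 samples, with 33, 38 and 21 and with 13, 14 and 15 reads. The other 4 sites had at most 10 reads in any sample and were each unlisted in 1 sample.

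The Rasgrf1 control region had 47, 61 and 33 reads at its 2 listed sites. The ratio to undifferentiated cells was 1.12 (0.753 to 1.67) in untreated and 0.861 (0.535 to 1.37) in treated cells. The site 31832 bp upstream had 20, 18 and 12 reads and the site 31595 bp upstream 27, 43 and 21 reads. No difference was detectable at this depth, since each interval includes 1.

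**Figure D1:**
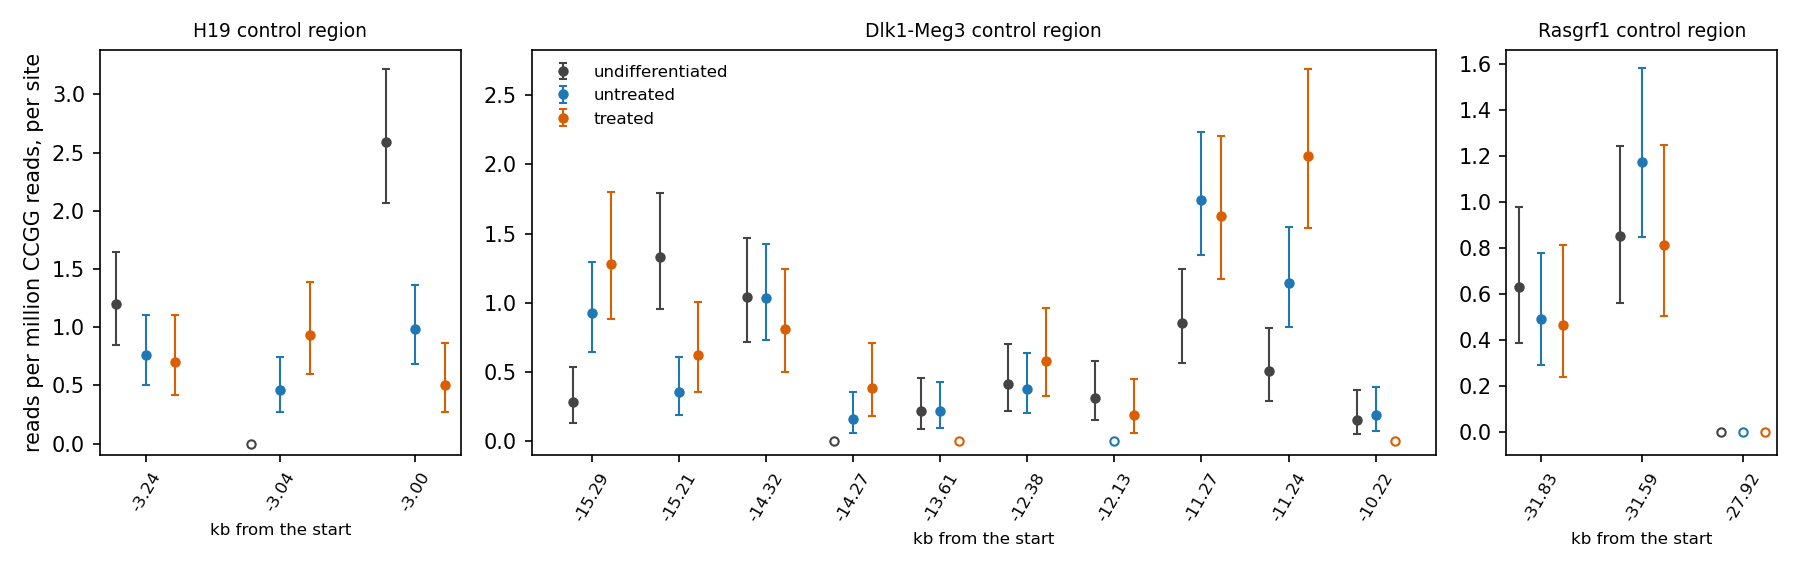
Scaled reads at each CCGG motif of the 3 control regions (x axis, distance from the start of H19, Meg3 or Rasgrf1 in kb; y axis, reads per 1000000 CCGG reads) in undifferentiated (grey), untreated (blue) and treated (orange) cells. Bars are 95% counting intervals and open circles are unlisted sites drawn at 0. At H19, the site at 82 reads in undifferentiated cells has 36 and 13 reads at day 7, and the neighbouring site goes from unlisted to 17 and 24 reads.

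The 3 control regions were set beside 2 lists of promoters within 1.5 kb of a start. At 13 promoters of genes with a control region methylated in oocytes, such as Peg3 and Kcnq1ot1, the median scaled reads per motif were 0.411, 0.464 and 0.508, and 50.9%, 61.1% and 56.5% of their 108 motifs were listed. These windows were centred on annotated gene starts, and their overlap with the control regions was not checked. The window of Mest held 1 motif, and that of Snrpn held none and gave no value. At 8 promoters of housekeeping genes, which are known as unmethylated CpG islands, the median was 0.109, 0.106 and 0.0758, and 12.9%, 19.8% and 17.8% of 101 motifs were listed. The housekeeping promoters ranged widely, with no listed motif in any sample at Hprt and Ppia. Eef1a1 had 0.497, 0.409 and 0.477 scaled reads per motif, against 0.496, 0.555 and 0.427 at the Rasgrf1 control region. Eef1a1 was the highest of the list in undifferentiated and treated cells, and Tbp in untreated cells at 0.454. The control regions of H19 and Dlk1-Meg3 were above the median of both lists in each sample, and that of Rasgrf1 was below the oocyte list in treated cells.

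**Figure D2:**
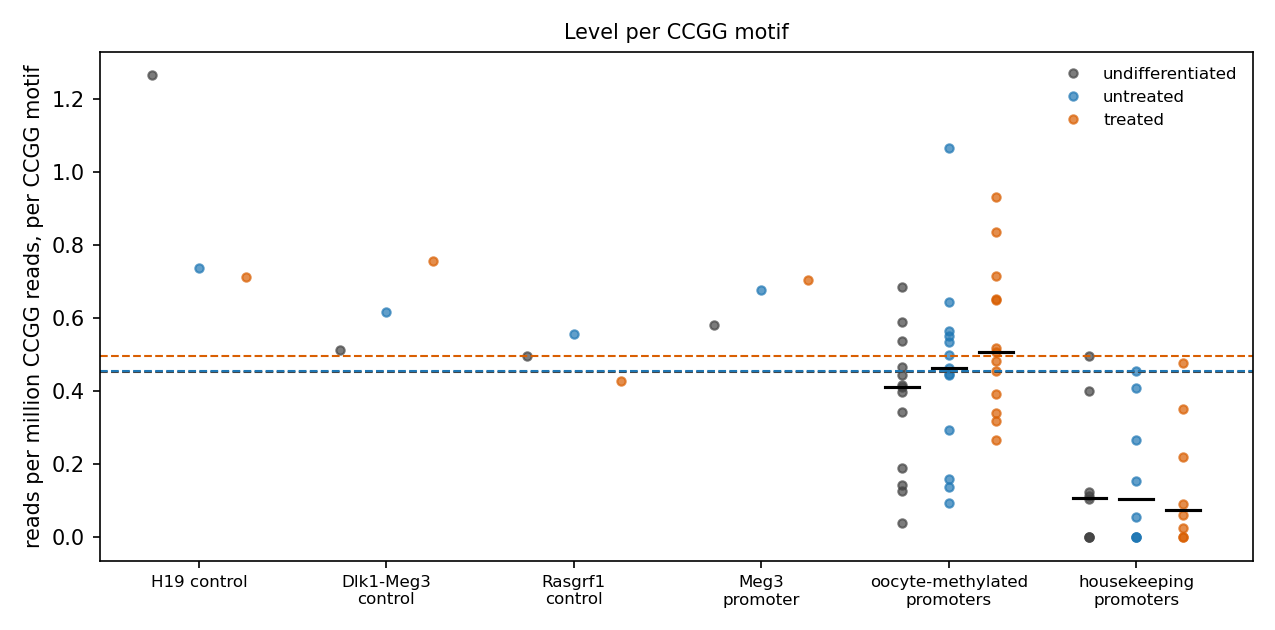
Scaled reads per CCGG motif (y axis, reads per 1000000 CCGG reads) in the 3 control regions, the Meg3 promoter region and 2 promoter lists, with 1 point per region or promoter and sample. Black lines are the medians of the lists and dashed lines the medians of all 2 kb tiles with at least 3 motifs. The housekeeping promoters have medians of 0.109, 0.106 and 0.0758, and the H19 control region is at 1.27 in undifferentiated cells.

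H19 (chr7:142575529-142578143, minus strand) was read at 6 of the 7 motifs of its gene body in each sample. The gene body had 357, 485 and 299 reads, with ratios to undifferentiated cells of 1.17 in untreated and 1.03 in treated cells. The site of the locus with the most scaled reads summed over the 3 samples lay in an exon, 1489 bp from the start, and had 181 reads in undifferentiated, 119 in untreated and 56 in treated cells. Another exonic site, 1853 bp from the start, was in the opposite order, with 16, 59 and 44 reads. Sites within the H19 body thus differed among themselves by more than the body as a whole differed between samples.
H19 exon, 1489 bp from the start: cctctccatcacaCCGGaccatgtcatgtc
H19 exon, 1853 bp from the start: cttaaagaagtccCCGGattcaaaggccca

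Upstream and downstream of H19 the samples were ordered in opposite ways. The 20 kb upstream had 554, 557 and 345 reads. The ratio to undifferentiated cells was 0.867 (0.770 to 0.977) in untreated and 0.764 (0.666 to 0.876) in treated cells. Of all genes' 20 kb upstream windows, 29.95% had a lower ratio in untreated and 18.0% in treated cells. The 3 upstream sites outside the control region with the most scaled reads summed over the samples, 624, 4056 and 8921 bp from the start, had 85, 134 and 68 reads, 45, 112 and 51 reads, and 75, 47 and 32 reads. The 20 kb downstream, where the H19 enhancers are known to lie, had 512, 717 and 673 reads, with ratios of 1.21 and 1.61, each just under the limit at which scaling to mapped reads turns it below 1. Of all genes' 20 kb downstream windows, 21.5% had a higher ratio in untreated and 7.97% in treated cells. The 2 kb bins that differed most here were 16 to 18 kb from the start, with 30, 45 and 91 reads, and 18 to 20 kb from the start, with 10, 30 and 44 reads. In the latter, 2 sites 12 bp apart had the same counts of 5, 15 and 19 reads, and counted once they leave the bin under the minimum of 50 reads used for bins. The site 16725 bp from the start was listed in treated cells only, with 26 reads.

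Igf2 (chr7:142650766-142666816, minus strand) was the member whose window had the highest ratio of treated to undifferentiated cells. Its window of 20 kb on each side had 1602, 2125 and 1784 reads, or 50.7, 58.0 and 69.2 scaled reads. The ratio to undifferentiated cells was 1.14 (1.07 to 1.22) in untreated and 1.37 (1.28 to 1.46) in treated cells, and that of treated to untreated cells was 1.19 (1.12 to 1.27). These stood above 82.4%, 92.5% and 88.8% of all gene windows, and within their range from the 5th to the 95th percentile. With scaling to all mapped reads, these ratios fell below 1.

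The gene body of Igf2, which overlaps the antisense gene Igf2os and the predicted gene Gm49394, had 421, 434 and 589 reads, and was listed at 17, 19 and 30 of its 56 CCGG motifs. The ratio of treated to undifferentiated cells was 1.72 and that of treated to untreated cells 1.93, whereas untreated to undifferentiated cells gave 0.889. Among the bodies of all genes with at least 50 reads, 8.83% had a higher ratio of treated to undifferentiated cells and 3.12% of treated to untreated cells. The bin 2 to 4 kb from the start, with 8 motifs, had 20, 5 and 71 reads, of which 15 and 13 treated reads were at 2 sites 5 bp apart. The bin 6 to 8 kb from the start, with 22 motifs, had 16, 12 and 34 reads. A site in a coding exon, 8445 bp from the start, was unlisted in undifferentiated cells and had 5 reads in untreated and 22 in treated cells. Near the start itself, within 1 kb, both motifs were listed in every sample, with 126, 143 and 88 reads.
Igf2 coding exon, 8445 bp from the start: ccttacctggaagCCGGcgacgctgccgcc

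Other parts of the Igf2 window were higher in both day 7 samples. The 20 kb upstream had ratios of 1.19 in untreated and 1.27 in treated cells, and the 20 kb downstream 1.30 and 1.19. The bin 18 to 20 kb upstream had no listed site in undifferentiated cells and 39 and 71 reads at day 7. It lies in the span annotated to the insulin gene Ins2 in GENCODE M21 (chr7:142678656-142743381). A site in an intron of this annotation accounted for 39 and 54 of these reads. In the other direction, an Igf2 intron site 1635 bp from the start had 42, 12 and 7 reads.

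**Figure D3:**
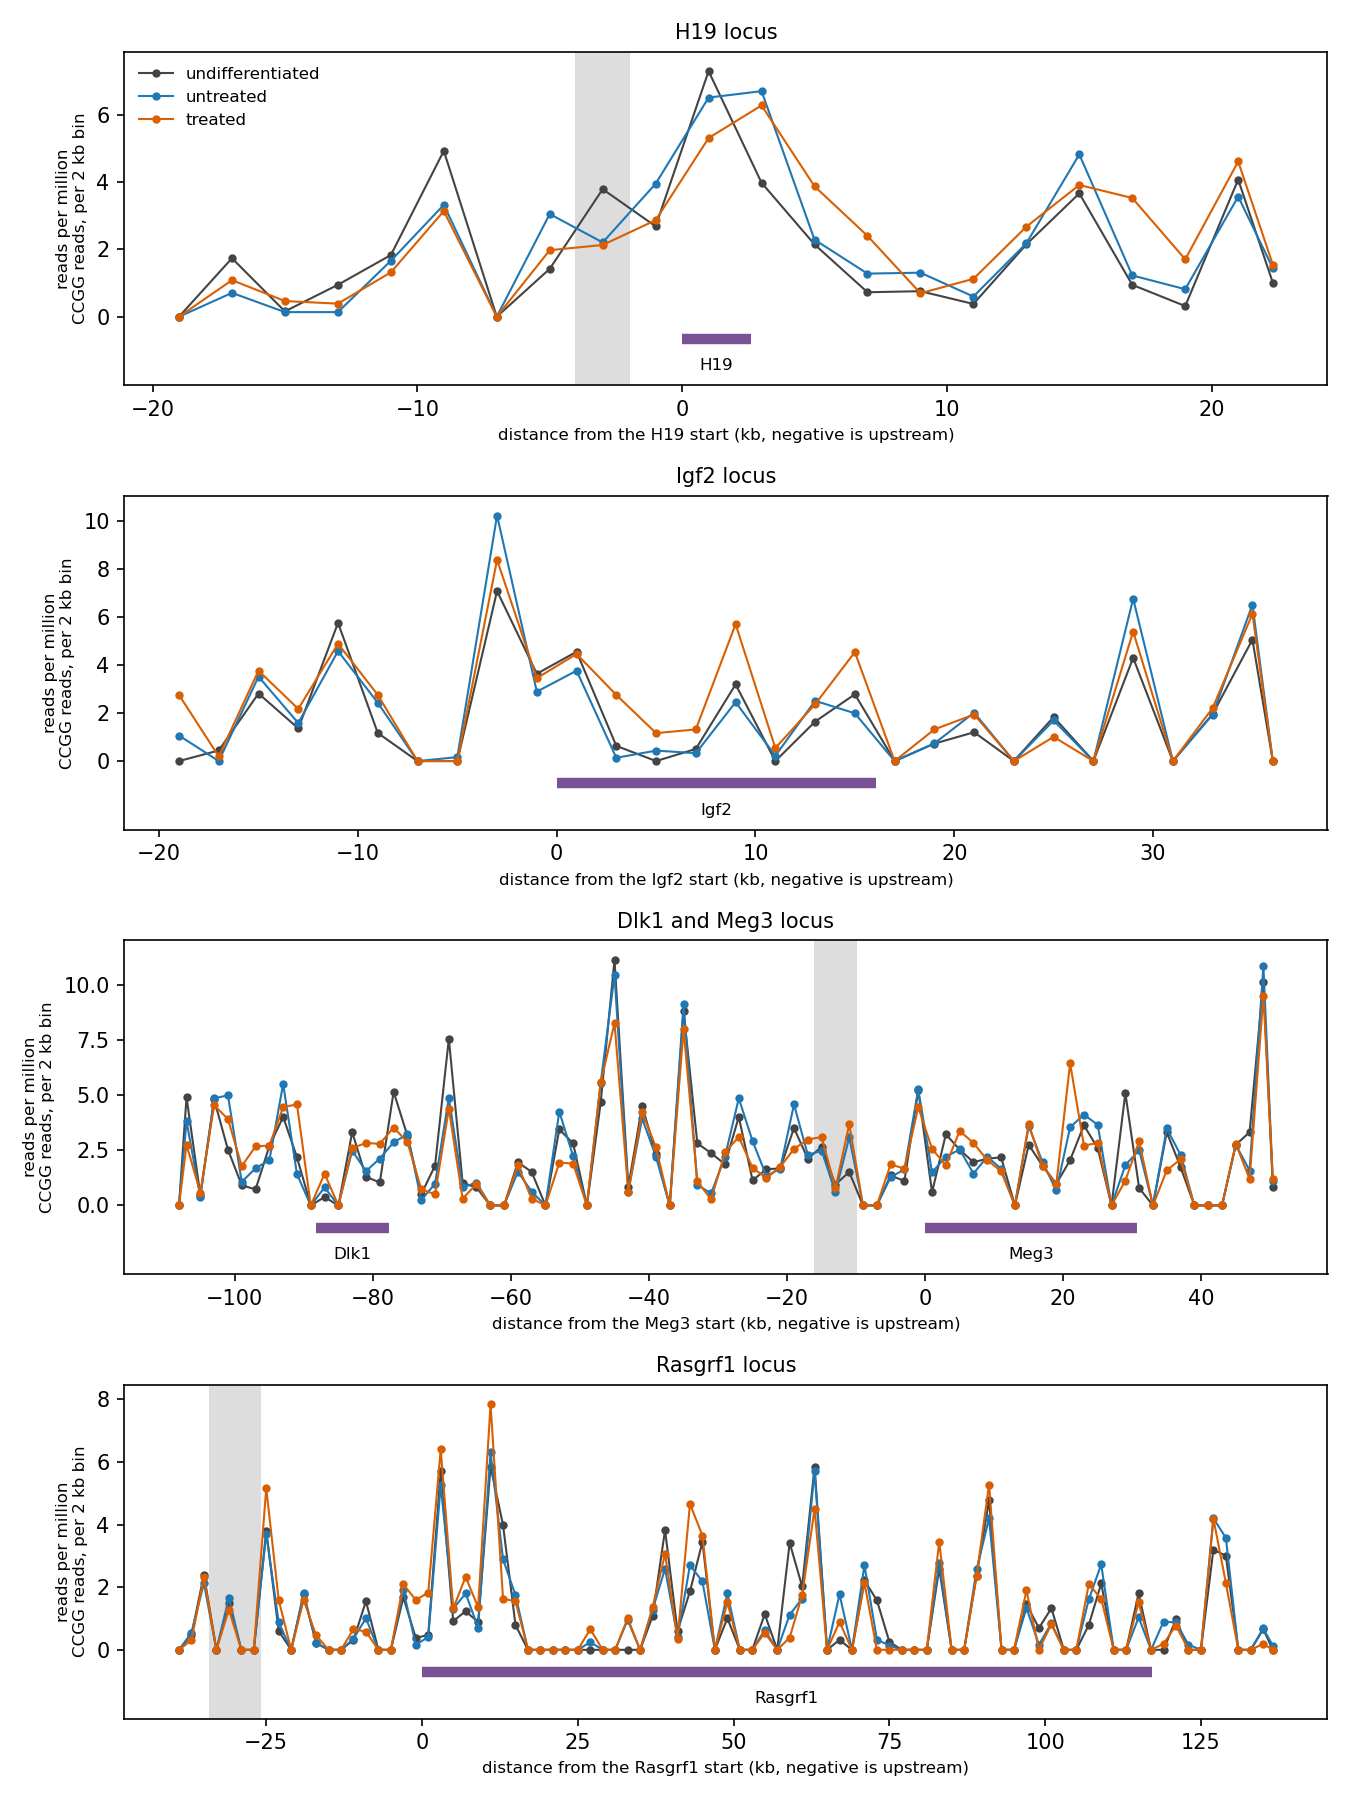
Scaled reads per 2 kb bin (y axis, reads per 1000000 CCGG reads) by distance from the gene start (x axis, kb) at the 4 loci in the 3 samples, with gene bodies as purple bars and control regions in grey. Across the Igf2 body the treated line lies above the other 2 in most bins, for example at 71 reads against 20 and 5 in the bin 2 to 4 kb from the start.

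Dlk1 (chr12:109452823-109463336, plus strand) had a window with 1621, 1772 and 1361 reads. The ratio to undifferentiated cells was 0.943 in untreated and 1.03 in treated cells, and the window was in the middle of all genes, above 37.4% and 58.6% of them. Its body had 191, 256 and 249 reads at 8, 12 and 13 of 19 motifs, and ratios of 1.16 (0.955 to 1.40) and 1.60 (1.32 to 1.94), both under the limits of 1.25 and 1.62. Of all gene bodies, 26.5% and 10.7% had a higher ratio. Intronic sites at chr12:109453917-109453920 and chr12:109457672-109457675 were unlisted in undifferentiated cells and had 10 and 22 reads, and 19 and 30 reads, in untreated and treated cells. The 20 kb downstream were lower in both, with 695, 571 and 390 reads and ratios of 0.709 and 0.689. Of all genes' 20 kb downstream windows, 11.7% had a lower ratio in untreated and 11.3% in treated cells. Within 1 kb of the Dlk1 start only 2 of 7 motifs were listed in each sample, with 12, 20 and 15 reads.

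The interval from Dlk1 to Meg3 spans 77.7 kb and had 3038, 3311 and 2095 reads over 88 motifs. The ratio was 0.940 (0.895 to 0.988) in untreated and 0.846 (0.7999 to 0.895) in treated cells. The 3 sites of the interval with the most scaled reads summed over the samples, 44130, 52974 and 45569 bp upstream of Meg3, had 94, 167 and 68 reads, 109, 156 and 50 reads, and 147, 91 and 63 reads. The lowest ratio was in the bin 30 to 32 kb upstream of Meg3, in an intron of the predicted gene Gm34081, with 75, 20 and 7 reads. The bin held 2 sites, of which 1 had 75 and 10 reads and was unlisted in treated cells, and the other was unlisted in undifferentiated cells and had 10 and 7 reads. The treated to undifferentiated ratio was thus above 1 in the control region, 10 to 16 kb upstream of Meg3, and below 1 in the interval that contains it.

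Meg3 (chr12:109541001-109571726, plus strand) showed little difference over its window. The reads were 2305, 2814 and 1963, and the ratios were 1.05 in untreated and 1.04 in treated cells. Its body had 997, 1135 and 870 reads and ratios of 0.982 and 1.07. Single bins differed in opposite directions. The bin from the start to 2 kb had 19, 55 and 66 reads, largely from the intronic site 313 bp from the start, with 5, 31 and 47 reads. The bin 28 to 30 kb from the start had 161, 67 and 29 reads, whereas the next bin, 30 to 32 kb, had 25, 92 and 75 reads, all at a site beyond the end of the gene. The promoter region within 1.5 kb of the start had 184, 248 and 181 reads, with ratios of 1.16 (0.957 to 1.41) and 1.21 (0.978 to 1.49), and 3 of its 10 motifs, 358 and 109 bp upstream and 68 bp downstream of the start, were listed in no sample.
Meg3 intron, 313 bp from the start: ggtgtgggggggtCCGGtccactagggctt

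Rasgrf1 (chr9:89909908-90026977, plus strand) had a window with 2534, 2928 and 2171 reads and ratios of 0.997 in untreated and 1.05 in treated cells. The body had ratios of 0.962 and 1.05. The 20 kb downstream had 248, 386 and 193 reads, with ratios of 1.34 (1.14 to 1.58) and 0.955 (0.787 to 1.16). The ratio of treated to untreated cells was 0.711 (0.595 to 0.848), just under the 5th percentile of 0.717 of such windows of all genes. Of these windows, 4.75% had a lower ratio of treated to untreated cells. To undifferentiated cells, 12.65% had a higher ratio in untreated and 44.3% a lower ratio in treated cells. Within 1 kb of the start, none of 7 motifs was listed in undifferentiated cells, 1 in untreated cells with 6 reads and 4 in treated cells with 35 reads. Of 7247 gene starts with at least 5 motifs and none listed in undifferentiated cells, 2.93% had at least 4 listed in untreated and 7.42% in treated cells. Over all 17102 starts with at least 5 motifs, 12.4%, 18.5% and 22.3% of motifs were listed. More motifs were listed than in undifferentiated cells at 46.3% of these starts in untreated and at 54.7% in treated cells, and treated cells had more listed than untreated cells at 37.7%.

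The 40 kb upstream of Rasgrf1 had 464, 527 and 455 reads, with ratios of 0.980 (0.863 to 1.11) in untreated and 1.20 (1.05 to 1.37) in treated cells. The 3 sites of this stretch with the most scaled reads summed over the samples, 24023, 19175 and 3678 bp upstream, had 84, 64 and 64 reads, 56, 66 and 41 reads, and 43, 58 and 41 reads. The number of motifs listed was 18, 17 and 22 of 31. Within the body, an intronic site 59522 bp from the start had 68, 11 and 0 listed reads, and another, 11985 bp from the start, had 10, 40 and 85 reads. Both lay in introns of the same gene, so neither stands for the gene as a whole.
Rasgrf1 intron, 59522 bp from the start: ggagaggcagagaCCGGtagatccctgggg
Rasgrf1 intron, 11985 bp from the start: gggggagcctatcCCGGtgataattaaaat

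**Figure D4:**
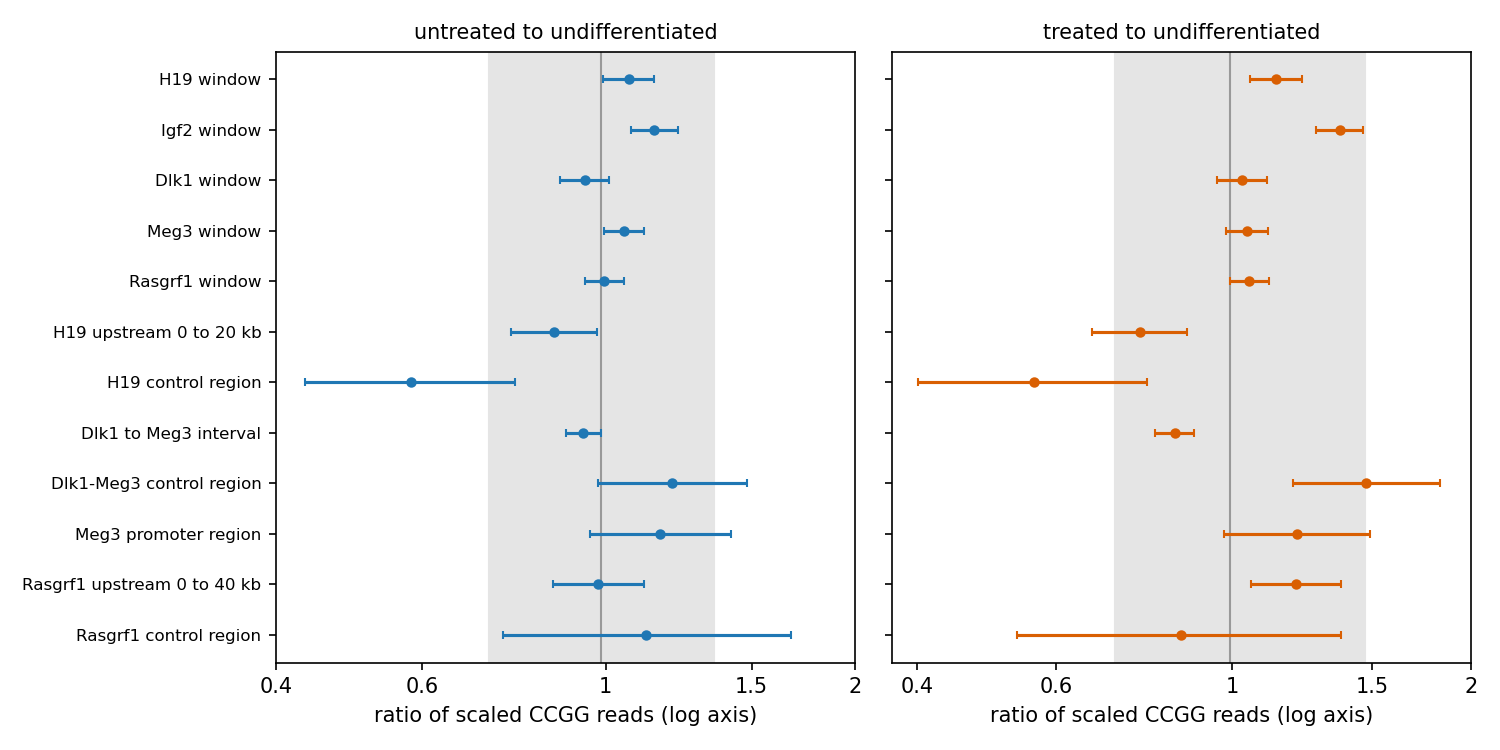
Ratio of scaled CCGG reads (x axis, log scale) of untreated (left) and treated (right) to undifferentiated cells for the 5 gene windows and 7 marked stretches, with 95% counting intervals. Grey bands run from the 5th to the 95th percentile of all gene windows and grey lines mark their median. All 5 gene windows lie in the bands. The H19 control region lies below them at 0.582 and 0.562, and the Dlk1-Meg3 control region just above the treated band at 1.48. Their 3 and 10 motifs are fewer than those of any of the 5 gene windows. Windows of the same size and distance from all gene starts have wider 5th to 95th percentiles, and both regions lie inside. These are 0.3375 to 2.458 (untreated) and 0.3209 to 3.005 (treated) for H19, and 0.4134 to 2.437 (treated) for Dlk1-Meg3.

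All 5 gene windows were in the range of other genes. From the 5th to the 95th percentile, the ratio of all gene windows ran from 0.723 to 1.35 for untreated and from 0.712 to 1.47 for treated cells. The H19 window, with 1423, 1759 and 1317 reads, had ratios of 1.07 (0.991 to 1.14) and 1.14 (1.05 to 1.22). The order of the treated to undifferentiated ratios was Igf2, H19, Rasgrf1, Meg3 and Dlk1, and the intervals of the last 4 overlapped.

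Bins and sites past 2-fold were counted over the loci. Of 221 bins of 2 kb, 131 had at least 50 reads over the undifferentiated and untreated samples, and 11 were past 2-fold higher and 8 lower in untreated cells, where the genome had 10.3% and 10.7%. In treated against undifferentiated cells, 20 of 133 bins were higher and 12 lower, where the genome had 12.6% and 12.5%. In treated against untreated cells, 8 of 130 were higher and 3 lower, where the genome had 4.83% and 3.08%. The shares at the imprinted loci were 8.40%, 15.04% and 6.15% for higher bins, and 6.11%, 9.02% and 2.31% for lower bins, each of the latter below that of the genome. By locus, treated cells were past 2-fold higher than untreated cells in 4 of 18 bins at Igf2, 2 of 18 at H19, 1 of 57 at Dlk1 and Meg3 and 1 of 37 at Rasgrf1.

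Single CCGG sites with at least 20 reads over a pair gave a similar picture. In untreated against undifferentiated cells, 47 of 285 sites were past 2-fold higher and 40 lower, where the genome had 16.1% and 17.8%. In treated against undifferentiated cells, 74 of 290 sites were higher and 49 lower, where the genome had 20.5% and 18.8%. In treated against untreated cells, 42 of 287 were higher and 16 lower, where the genome had 11.0% and 6.15%. The higher sites were 25.5% of the sites with at least 20 reads in treated against undifferentiated cells, with 14 of 37 at H19, 13 of 45 at Igf2, 28 of 133 at Dlk1 and Meg3 and 19 of 75 at Rasgrf1. At both H19 and Igf2, no site was past 2-fold lower in treated than in untreated cells.

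Listing of sites was compared as well. Of 460 reference CCGG motifs at these loci, 69.3% (65.0% to 73.4%) were listed in undifferentiated, 71.3% (67.0% to 75.2%) in untreated and 75.4% (71.3% to 79.1%) in treated cells. Over the genome the shares were 52.1%, 52.9% and 53.4%. A 28-base window around the motif was unique for 96.5% of motifs at these loci and for 76.8% in the genome, and the part of this in the higher share was not tested. Of the 384 sites, 280 were listed in all 3 samples, 30 in treated cells only and 12 in undifferentiated cells only. The sites listed in treated cells only were 7.81% of the members and 5.66% of all sites, and 12 of the 30 were at Igf2.

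**Figure D5:**
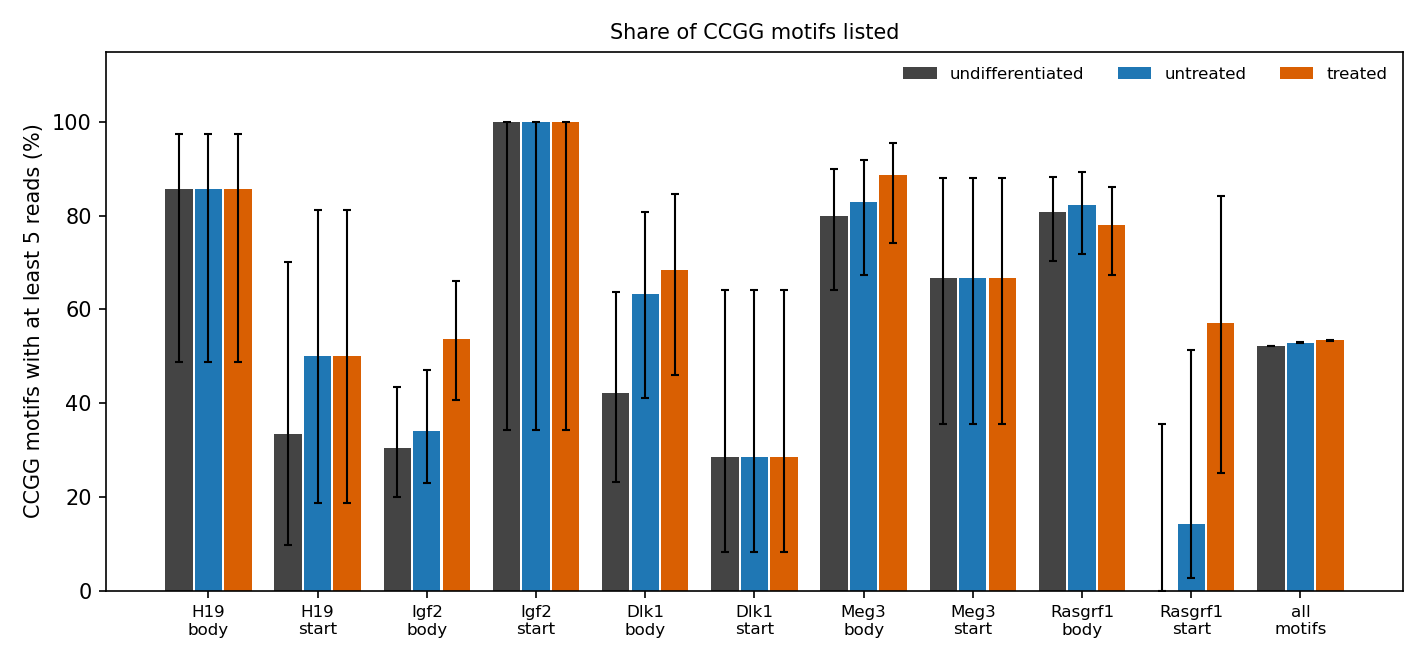
Share of CCGG motifs with at least 5 reads (y axis, percent) in the body and within 1 kb of the start of each gene and over all motifs of the genome, in the 3 samples, with 95% Wilson intervals. At Igf2, 17, 19 and 30 of 56 motifs of the body are listed, and at the Rasgrf1 start 0, 1 and 4 of 7.

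Bins with many CCGG motifs were counted separately. Of the 10 member bins with at least 7 CCGG motifs, 9 had at least 50 reads over the treated and undifferentiated samples, and 4 were past 2-fold higher and 0 lower, where the genome had 25.8% and 3.28% of such bins. In treated against untreated cells, 3 of 8 were higher and 0 lower, where the genome had 17.1% and 1.81%. In untreated against undifferentiated cells, 0 of 6 were past 2-fold, where the genome had 11.2% higher and 4.38% lower. The scaled reads of all such bins together were 1.10 times the undifferentiated level in untreated and 1.29 times in treated cells over the genome, and 1.03 and 1.19 times at the members. This set of bins was chosen after the values were seen.

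The windows of 19 other genes were summarised, 17 of the same clusters and 2, Zdbf2 and Gpr1, of another sperm-methylated locus on chromosome 1. Their median ratio was 1.07 in untreated and 1.13 in treated cells, with 14 of 19 above 1 in each, against medians of 1.05 and 1.05 for the 5 members and 0.988 and 0.993 for all gene windows. The highest ratios of treated to undifferentiated cells were those of Ankrd34c, a neighbour of Rasgrf1, at 1.64 and Ins2 at 1.43. The lowest were those of Mirg, a non-coding RNA downstream of Meg3, at 0.681 and Gpr1, outside these clusters, at 0.915. In untreated cells, Morf4l1 at 1.37 and Ctsh at 1.25 were highest, and Mirg at 0.839 and Tmed3 at 0.911 were lowest. The windows of Ins2, Mrpl23, Nctc1, Rtl1, Rian and Ctsh overlap those of members and share reads with them. Several of the 19 windows also overlap each other, such as Tmed3 with Ankrd34c and Ctsh with Morf4l1. The 19 ratios are therefore not independent.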

How the data were processed

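MethylRAD libraries of undifferentiated, untreated day 7 and pargyline-treated day 7 ESCs were compared, with 1 library per condition grouped by the labels. The authors trimmed single-end reads, removed those lacking an FspEI site, aligned the rest to GRCm38 (Bowtie2 2.3.3 in the submitters' processing notes) with at most 1 mismatch, and kept uniquely mapped reads. The deposited counts are reads per site without normalization, and sites under 5 reads were removed. The deposited RPM relates each count to 1000000 mapped reads, and was used only as an alternative scaling. Counts of a site found under more than 1 pattern were summed by the authors. The file names say that duplicates were removed, the methods name no removal of PCR copies, and intervals cover counting error only.

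CCGG counts were summed over gene windows, stretches and 2 kb bins, with unlisted sites at 0, and scaled to the 31614085, 36654600 and 25767119 CCGG reads of the undifferentiated, untreated and treated tables. At this depth, 5 reads correspond to 0.158, 0.136 and 0.194 scaled reads. CCAGG and CCTGG rows were left out, since nearly all CCTGG sites carry the same count in all 3 tables, as do nearly all CCAGG sites in the tables without pargyline. Ratios have exact conditional binomial 95% intervals, levels exact Poisson intervals and shares Wilson intervals. Bins needed at least 50 and sites at least 20 reads over a pair to be counted past 2-fold. Gene windows of all genes needed at least 10 motifs and 100 reads. Sums, intervals and ratios were tested on simulated data.

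Named were the 5 genes, every marked stretch, the 3 sites of each with the most scaled reads summed over the samples, every site of a control region, and the bins and sites with the largest ratios at each locus. The sites printed within genes are a selection from these. The limits of the control regions were set from general knowledge of these loci. The members, lists and comparisons were chosen with earlier results of these data known. Alternatives were other scalings, cutoffs, windows, bins and read minimums. A 2 to 5 kb H19 control region, a Dlk1-Meg3 control region without 2 close sites, sites at most 15 bp apart counted once, and bins with at least 7 motifs were added after the data were seen. Scripts ran in Python 3.11.15 with SciPy 1.17.1 for intervals, numpy 2.4.6 with pandas 2.3.3 for tables, and matplotlib 3.10.9 for figures.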

Additional observations from a re-analysis of the deposited data

Results flagged for a closer look

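The bin 2 to 4 kb from the Igf2 start differed in opposite directions in the 2 day 7 samples. It had 20 reads in undifferentiated, 5 in untreated and 71 in treated cells, and the ratio to undifferentiated cells was 0.216 in untreated and 4.36 in treated cells. Of its 8 motifs, 2 that lie 5 bp apart had 15 and 13 of the treated reads and can lie in the same read. The untreated ratio rests on 25 reads, under the minimum of 50 used for bins. The difference between the 2 ratios was not tested, since each condition had 1 library.

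CCAGG sites were not used in the comparisons. At the 4 loci, 422 CCAGG sites with 5357 reads were listed in treated cells, against 130 sites with 1841 reads in undifferentiated and also in untreated cells. Over the whole tables, treated cells had 893047 CCAGG sites, undifferentiated cells 268384 and untreated cells 268386. Of the 268383 CCAGG sites that the undifferentiated and untreated tables share, 99.975% carry the same count, against 2.52% of their shared CCGG sites, so these CCAGG counts are not separate measurements of the 2 samples.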

How the results depend on the processing

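Ratios are given in the order untreated to undifferentiated, treated to undifferentiated and treated to untreated, and past 2-fold counts as higher then lower. Scaling to mapped reads gave 0.831, 0.687 and 0.827 for the 5 gene windows pooled (1.04, 1.11 and 1.07 with scaling to CCGG reads), 0.749, 0.541 and 0.722 for the pooled marked stretches (0.935, 0.876 and 0.937) and medians of 0.860, 0.697 and 0.788 for the 19 other genes. It also gave 0.195 scaled reads per motif in treated cells at the promoters of genes with an oocyte-methylated control region. The bins were 4 and 13, 10 and 37, and 4 and 15. The site counts were 28 higher in untreated, 38 and 97 in treated against undifferentiated, and 22 and 50 in treated against untreated cells. The size of this shift follows from the divisors. Scaling by the median site ratio gave 0.983 and 1.06 for the gene windows and 0.887 and 0.833 for the stretches in the first 2 ratios, and 7 bins higher in untreated cells. With sites listed in all 3 tables only, the gene windows gave 1.06 and 1.01 in the last 2 ratios, and 3 bins were lower in untreated cells, 11 higher in treated than in undifferentiated cells and 3 higher in treated than in untreated cells.

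With a cutoff of 10 reads, 59.6%, 61.3% and 62.0% of motifs were listed. With 50 kb on each side, the gene windows gave 1.04 and 1.02 in the last 2 ratios. In bins of 1 kb, 13 were lower in untreated and 20 in treated than in undifferentiated cells, and 17 were higher and 5 lower in treated than in untreated cells. In bins of 4 kb, the counts were 5 and 3, 10 and 4, and 5 higher in treated than in untreated cells, and bins shifted by 1 kb gave 13 of the latter. Sites with at least 40 reads gave 29 and 41 higher in untreated and treated than in undifferentiated cells, and 21 and 7 in treated against untreated cells. Without a minimum, the counts were 76 and 63 in untreated and 124 higher in treated against undifferentiated cells, and 90 and 38 in treated against untreated cells. The cause was not tested where the number of bins, sites or reads did not set it.

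With sites at most 15 bp apart counted once, chosen after seeing the data, the bins past 2-fold were 10 and 8, 18 and 12, and 7 and 3. All 197 other values computed for these summaries stayed within 1.5 times the count or within their interval. Among the values computed outside these summaries, 336 stayed within these limits and 51 moved past them. These 51 values are not listed here, so results outside the summaries can also depend on the processing. No paired analysis was possible because each condition had 1 library, and for the same reason no replicate could be left out. The control regions of H19 and Rasgrf1, with 3 motifs and at most 120 reads in a sample, had wider intervals than the gene windows.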
